A study of Homo sapiens with 2 samples.

Results

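The HOXA genes from HOXA2 to HOXA11 were examined in HCT116 cells, an established human colon cancer cell line, that carried a vector for HOXA5 short RNA. The genes were HOXA2, HOXA3, HOXA4, HOXA5, HOXA6, HOXA7, HOXA9, HOXA10 and HOXA11. Their probes were found through the RefSeq transcript accessions in the scanner files, which gave 11 probes for these 9 genes of the 21614 genes with a symbol on the array. Of the 9 genes, 8 were well above background on both arrays, and HOXA2 was above it on neither.

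Both groups were HCT116 cells transfected with a pEB vector and grown in blasticidin medium for 2 weeks. The mock group had the genotype label control, and the other group was labeled as overexpressing HOXA5 short RNA. Both samples carry an identical treatment protocol that mentions only the vector with HOXA5 short RNA, so the direction of every difference rests on the genotype label and the sample title. HOXA5 short RNA is a transcript of the HOXA5 locus that lacks the first exon of HOXA5 and keeps its last exon. Total RNA of each group was labeled with Cy3 and hybridized to 1 human whole-genome array, and both arrays lay on the same slide. The sources used here do not say whether the transfected cells were a pool or a clone. There were no replicate arrays, so no difference was tested and no value below carries a spread between cultures. In RNA from bulk cells, more cells with a transcript and more RNA per cell cannot be told apart.

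HOX genes encode homeodomain transcription factors, and they lie in clusters in which the order of the genes follows the order of their expression along the body axis. In the gut they take part in regional patterning, and in adults many of them stay expressed in a pattern typical of the tissue. HOXA5 is known for its part in lung and gut development, and in the intestinal epithelium it has been linked to retinoid signaling and to loss of stem cell traits. HOX genes of one cluster overlap heavily in RefSeq, and several of their transcripts start inside or beyond a neighboring gene.

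The sequences that define HOXA5 short RNA are shown first, because the HOXA5 value turns on which transcript its probe read. The study designed a pair of siRNAs to the joint between the upstream first exon of the short RNA and the last exon of HOXA5. Their overlap of 17 bases, in capitals, is common to both. The other siRNA shown was aimed at the first exon of HOXA5, which the short RNA lacks.
First siRNA to the joint (#7): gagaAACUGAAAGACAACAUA
Its partner, shifted along the joint (#8): AACUGAAAGACAACAUAggcg
siRNA to the HOXA5 first exon (#6): uacggcuacaauggcauggau

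The qPCR assays of the study for the HOXA5 coding region and for HOXA5 short RNA used different forward primers and a shared reverse primer. The forward primer for HOXA5 short RNA also occurs in the sequences that the study printed for the long transcripts. A further primer pair was aimed at the long transcripts.
HOXA5 coding region, forward: cccaaccccagatctaccc
HOXA5 short RNA, forward: gaggtggagctgttcaatgg
Both, reverse: gggtcaggtaacggttgaag

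The array had no such separate assays. Its only HOXA5 probe was assigned to NM_019102, the HOXA5 mRNA, and the scanner files do not give the stretch of the transcript to which it binds. Signals from HOXA5 short RNA, from HOXA5 mRNA and from the long HOXA5 transcripts that the study also found in HCT116 cells could therefore not be separated in these data. By qPCR, the study reported more HOXA5 short RNA in its stably transfected HCT116 cells, with coding HOXA5 mRNA unchanged.

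The HOXA3 annotation of RefSeq was also examined, because in GRCh38.p14 it reaches over HOXA4, HOXA5 and HOXA6 on the same strand. Of the 7 start windows listed for HOXA3, 2 lie between HOXA6 and HOXA7, upstream of HOXA5. The study placed the start of HOXA5 short RNA between HOXA7 and HOXA6 too. The window at chr7:27150901-27151200, on the minus strand, is shown with the 250 bases before the start in lower case and the 50 bases from the start onward in capitals.
HOXA3 start between HOXA6 and HOXA7: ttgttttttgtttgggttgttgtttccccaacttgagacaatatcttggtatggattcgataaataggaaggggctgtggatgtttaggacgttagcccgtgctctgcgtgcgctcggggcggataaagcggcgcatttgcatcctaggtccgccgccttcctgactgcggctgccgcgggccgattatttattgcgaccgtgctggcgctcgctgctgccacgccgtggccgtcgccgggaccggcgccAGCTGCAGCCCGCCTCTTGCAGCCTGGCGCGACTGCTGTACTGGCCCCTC

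The antisense gene HOXA-AS3 overlaps HOXA3, HOXA5, HOXA6 and HOXA7 on the opposite strand. The names of the HOXA3, HOXA5 and HOXA6 probes below are those of the accession on the array, and which of the overlapping transcripts each probe reads was not tested.

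Signals are given as the processed signal, the brightness of a spot after the background correction of the scanner software. The error after each signal is that of the scanner software, for 1 spot. Differences are on the log2 scale, HOXA5 short minus mock, after each array was divided by its 75th percentile, which was 35.6 for mock and 44.0 for HOXA5 short. This division lowers a raw ratio by 0.30 on the log2 scale. The spread of a single spot was taken from probes printed in 10 spots, and it fell with brightness from an SD of 0.58 at signals of 5 to 15 to 0.29 at 15 to 50, 0.19 at 50 to 200 and 0.15 above 200. Levels of different probes were not compared with each other.

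HOXA5 was the gene that stood apart in the cluster. Its probe gave 39.4 ± 4.32 in mock cells and 346 ± 34.6 in HOXA5 short cells. The array with the HOXA5 short RNA vector was therefore the high one, and its signal was 306 units above the mock signal. Before scaling the ratio was 8.78, and after scaling the signal was 7.11-fold higher with HOXA5 short RNA. The log2 difference was 2.83 with a scanner error of 0.21. The spot SD was 0.19 at the geometric mean signal of 117, a brightness that HOXA5 had on neither array. At signals of 15 to 50, where the mock value lay, the spot SD was 0.29, and above 200 it was 0.15. The HOXA5 signal was also measurable in the mock cells. The foreground of the spot was 71.5 against a local background of 23 in mock cells, and 367 against 22 in HOXA5 short cells.

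Of the 8 HOXA genes compared, 1 passed 2-fold upward with HOXA5 short RNA and 0 passed it downward. Over all 11996 genes, 0.642% passed 2-fold upward and 0.258% downward. HOXA5 ranked 4 from the top among all of these genes. The median log2 difference of the 8 HOXA genes was 0.01, and that of all genes compared was -0.02. Without HOXA5 the 7 other HOXA genes lay between -0.34 and 0.22.

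HOXA2, which patterns the hindbrain and the branchial arches, gave 1.93 ± 1.93 in mock cells and 3.25 ± 2.20 in HOXA5 short cells. Neither value was well above background, so no difference is given for it. The foreground was 33 against a local background of 21 in mock cells and 37 against 22 in HOXA5 short cells.

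HOXA3, a regulator of thymus and parathyroid formation, gave 18.4 ± 2.51 in mock cells and 26.4 ± 3.22 in HOXA5 short cells. Its log2 difference was 0.22 with a scanner error of 0.26, and the spot SD at this brightness was 0.29. The difference was thus smaller than either error, and normexp background correction turned it to -0.05. HOXA4, a gene of axial patterning, gave 10.7 ± 2.08 in mock cells and 12.5 ± 2.29 in HOXA5 short cells. Its log2 difference was -0.08 with a scanner error of 0.38, and it was 0.02 after scaling to the median and 0.40 after scaling to spike-ins. Both genes lie on the HOXA2 side of HOXA5, and neither differed by more than the spread of a single spot.

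On the other side of HOXA5 lie HOXA6 and HOXA7. HOXA6, the nearest HOXA neighbor on that side and a gene of trunk patterning, gave 9.15 ± 1.90 in mock cells and 12.1 ± 2.18 in HOXA5 short cells. Its log2 difference was 0.09 with a scanner error of 0.40, at a spot SD of 0.58, and normexp background correction turned it to -0.13. HOXA7, likewise a gene of trunk patterning, gave 224 ± 22.4 in mock cells and 279 ± 28.0 in HOXA5 short cells. Its log2 difference was 0.02 with a scanner error of 0.20, a 1.01-fold difference. The spot SD at this brightness was 0.15. HOXA7 was above 0 under all 12 alternative settings, with values from 0.0003 to 0.49, of which the highest came from scaling to spike-ins. The settings rework the same spots, and some of them leave the value as it was. No direction is therefore read from such counts of settings, for HOXA7 or for the genes below.

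HOXA9, a gene of hematopoietic stem cells that is often active in leukemia, had 2 probes. The first, A_23_P500998, gave 1001 ± 100 in mock cells and 1296 ± 130 in HOXA5 short cells, a log2 difference of 0.07 with a scanner error of 0.20. The other, A_33_P3416231, gave 244 ± 24.4 in mock cells and 287 ± 28.8 in HOXA5 short cells, a log2 difference of -0.07 with a scanner error of 0.20. The 2 probes were 0.14 apart, which is less than the spot SD of 0.15, and their mean was 0.0003. HOXA9 was above 0 in 11 of 12 alternatives, the highest being 0.48 after scaling to spike-ins and 0.17 with normexp, and it was -0.02 after scaling to the 75th percentile of detected probes.

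HOXA10, which is needed for uterine receptivity, also had 2 probes. A_24_P77904 gave 49.3 ± 5.20 in mock cells and 62.5 ± 6.52 in HOXA5 short cells, a log2 difference of 0.04 with a scanner error of 0.21. A_33_P3288649 gave 101 ± 10.2 in mock cells and 102 ± 10.4 in HOXA5 short cells, a log2 difference of -0.29 with a scanner error of 0.21. These probes were 0.32 apart, and their mean was -0.12. The spot SD of 0.19 is that of a single spot, and the wider spread of a gap between 2 spots was not computed. HOXA10 was below 0 under all alternatives but scaling to spike-ins, which gave 0.35.

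HOXA11, which takes part in limb, kidney and uterus development, gave 23.5 ± 2.81 in mock cells and 22.9 ± 2.84 in HOXA5 short cells. Under the reported setting it was the lowest difference in the cluster, with a log2 value of -0.34. Its scanner error was 0.25 and the spot SD was 0.29. Scaling to spike-ins turned it to 0.13, and subtracting the surrounding spots gave -0.21. With normexp background correction it was -0.08, and HOXA4 at -0.10 and HOXA6 at -0.13 were lower. Before scaling the HOXA11 signals differed by less than their scanner errors, with a ratio of 0.973, and scaling took a further 0.30 off the log2 ratio, as it did for every probe.

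The HOXA probes were then set beside all probes of like brightness, that is probes whose geometric mean signal over the arrays lay within 2-fold of theirs. Of the 10 HOXA probes compared, 9 lay inside the central 95% of such probes and 1, HOXA5, lay outside. For HOXA5 that interval ran from -0.46 to 0.65 over 5148 probes, and HOXA5 lay at the percentile 99.96. The 9 other probes lay at percentiles from 10.3 to 75.7. Their fold differences ran from 0.788 to 1.16. Of these 9, 5 were above 0 and 4 below 0, and 7 differed by less than their scanner error. The 2 that exceeded it were the HOXA11 probe and A_33_P3288649 of HOXA10. Over all genes compared, 5450 were above 0 and 6546 below 0. No share of all probes below their scanner error is given, so nothing particular to the cluster is read from these counts.

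**Figure D1:**
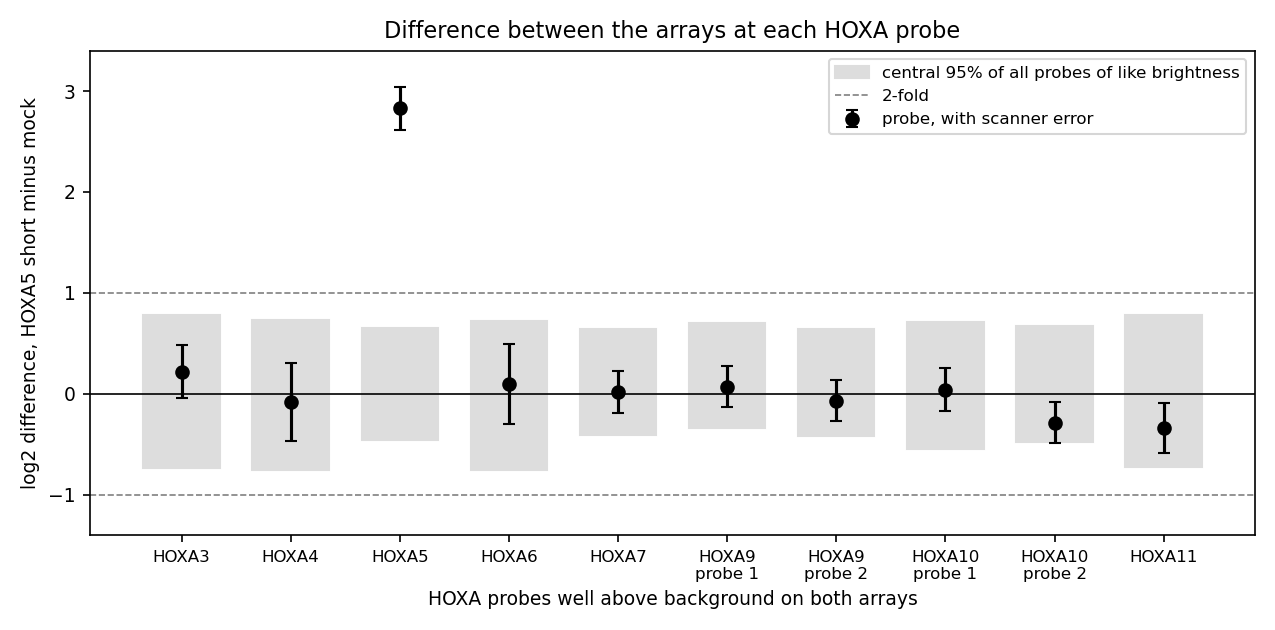
Log2 difference (HOXA5 short minus mock) of the 10 HOXA probes well above background on both arrays, with the scanner error as bars, the central 95% of all probes of like brightness as grey boxes and 2-fold as dashed lines. HOXA5 stands at 2.83 above its box and the 9 other probes lie inside theirs.

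**Figure D2:**
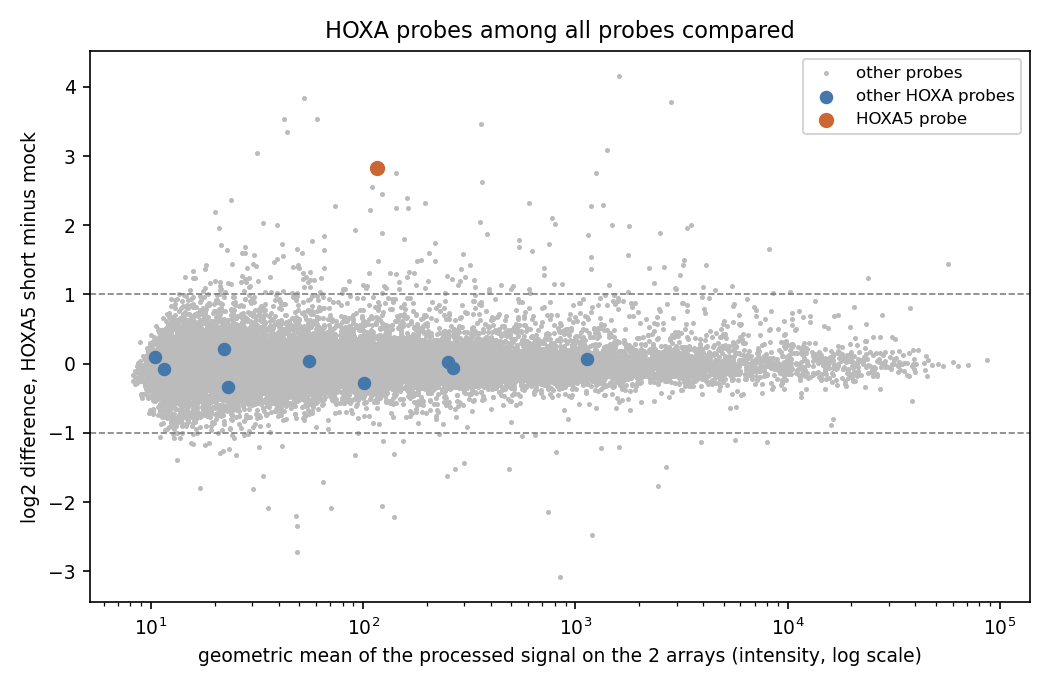
Log2 difference (HOXA5 short minus mock) against the geometric mean of the processed signal on both arrays (intensity, log scale) for all probes compared (grey), with the HOXA5 probe in orange and the 9 other HOXA probes in blue. The blue points lie in the body of the cloud between -0.34 and 0.22, and HOXA5 lies at 2.83 among few other probes.

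Position on the slide was examined, since the changed spots gathered in parts of the grid. The HOXA5 spot lay at row 333 and column 13. In columns 1 to 14, 6.53% of the probes printed once differed at least 2-fold (92 of 1408), against 0.973% in the other columns (155 of 15938). HOXA5 thus lay inside the band with the higher share. The limit at column 14 was a fixed choice that no stated rule gave, so the shares only describe these arrays. In that band 9 of 1408 probes, 0.639%, were at least as high as HOXA5, with HOXA5 among them. The spots next to HOXA5 were even. Of the 18 well-measured spots within 3 rows and 3 columns, 0 differed 2-fold, and their log2 differences ran from -0.43 to 0.42. Subtracting the mean of these spots left HOXA5 at 2.84. The part of the band in the HOXA5 value beyond these neighbors was not tested.

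The other HOXA spots lay outside that band, with HOXA7 nearest to it in column 17. The HOXA probes had from 10 to 25 well-measured neighbors each, and 0 of the HOXA spots had a neighbor that differed 2-fold. When genes whose probes all lay in uneven areas were left out, HOXA5 ranked 3 of 11744 genes. An area was called uneven when at least 10 percent of at least 10 neighbors differed 2-fold.

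**Figure D3:**
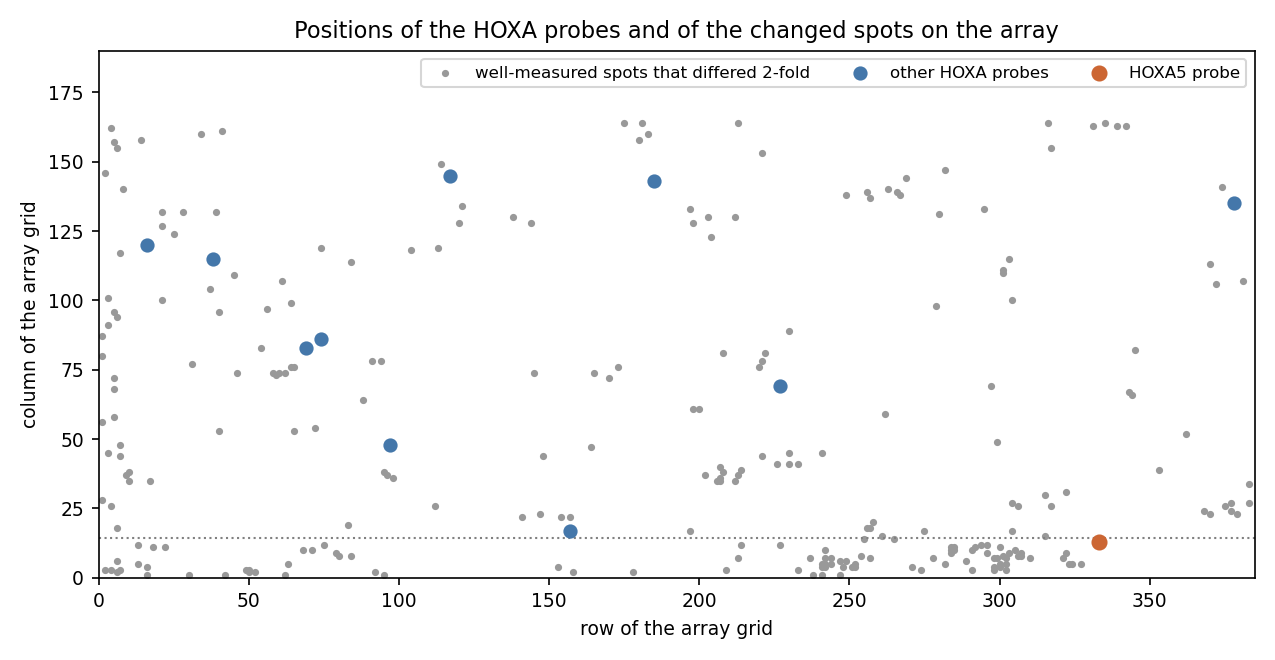
Grid row against grid column of the HOXA5 spot (orange), the other HOXA spots (blue) and the well-measured spots that differed at least 2-fold (grey), with a dotted line above column 14. The HOXA5 spot sits at the edge of the band of columns 1 to 14, where grey spots are densest, and has no grey spot among its 18 neighbors.

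The genes whose pattern was closest to that of HOXA5 were taken as those with a mock signal within 2-fold of that of HOXA5 and the nearest log2 difference. They were DERL3 at 2.75, TRAF7 at 2.45, CIT at 2.29, NCAPD3 at 2.26 and PLAAT5 at 1.93, a likeness over only 2 arrays. The spots of DERL3, TRAF7 and CIT lay in uneven areas, with 3 of 19, 2 of 13 and 4 of 15 neighbors past 2-fold. NCAPD3 had 0 of 9 such neighbors, PLAAT5 had 0 of 10 and HOXA5 had 0 of 18. With fewer than 10 neighbors, the area of NCAPD3 could not be called uneven.

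The cluster was followed beyond the HOXA2 to HOXA11 stretch. The values of these other genes would all lie 0.48 higher after scaling to spike-ins, which turns the negative ones above -0.48 positive. With 0.642% of all genes past 2-fold upward and 0.258% downward, a count of 0 in a list of 5 to 10 genes is what that share gives, and nothing particular to a list is read from it. Among the flanking genes 7 were compared, 0 of them differed 2-fold, and their median was -0.12 on the log2 scale. HOXA13, a regulator of hindgut and digit formation at the far end of the cluster, gave 14.004 in mock cells and 24.5 in HOXA5 short cells. Its log2 difference of 0.50 was the highest of the flanking genes. The HOXA13 spot lay in an uneven area, where 2 of 13 neighbors differed 2-fold and their mean was 0.46, and normexp background correction lowered the value to 0.08. EVX1, the homeobox gene past HOXA13, had a log2 difference of -0.14, which normexp turned to 0.02, and its spot also lay in an uneven area, with 1 of 10 neighbors past 2-fold and a neighbor mean of -0.49. SKAP2 on the HOXA2 side had the lowest of the flanking genes at -0.31. HIBADH was at 0.30, SNX10 at -0.12 and TAX1BP1 at -0.08, which normexp turned to 0.08. JAZF1 was at -0.22, again in an uneven area, with 1 of 10 neighbors past 2-fold and a neighbor mean of 0.34. The part of these areas in the values was not tested.

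Few of the other transcripts of the cluster were measurable. Of 8 listed, the HOXA10-HOXA9 readthrough among them, 4 were named on the array, all of them non-coding, and 2 were compared. HOTAIRM1, an RNA transcribed near HOXA2, gave 166 in mock cells and 181 in HOXA5 short cells, a log2 difference of -0.18. HOXA11-AS, the antisense partner of HOXA11, gave 50.2 and 62.6 on these arrays, a log2 difference of 0.01, in an uneven area where 2 of 18 neighbors differed 2-fold, and its other probe was not compared. HOXA-AS3, which overlaps HOXA5 on the opposite strand, had 3 probes, and 0 of them was well above background on either array. HOTTIP, transcribed beyond HOXA13, was likewise not well above background with either of its probes.

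HOXA5 has paralogs in the other clusters, genes that arose from a shared ancestor by duplication. Of 18 HOXB, HOXC and HOXD genes, 10 were compared and 0 differed 2-fold, with a median of -0.12 and a range from -0.33 for HOXC6 to 0.42 for HOXB7, which normexp turned to -0.06. HOXB5, the HOXB paralog of HOXA5, gave 148 in mock cells and 178 in HOXA5 short cells, a log2 difference of -0.03, which normexp turned to 0.05. HOXC5, the HOXC paralog, was not well above background on either array. HOXD3 was well above background only on the HOXA5 short array, with a bound of at least 1.07-fold, and the other HOXD genes listed were above background on neither.

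HOX proteins bind DNA together with cofactors of the TALE class, the PBX, MEIS and PKNOX proteins. Of these genes 5 were compared, and 0 differed 2-fold. Among them PBX2 had a log2 difference of 0.46, PBX4 of -0.11, MEIS2 of 0.04 and PKNOX1 of -0.30, and normexp turned MEIS2 to -0.06. MEIS1 and MEIS3 were near background on both arrays. PBX3 was detected with 1 of its 2 probes, on the HOXA5 short array alone, and was not compared. Of 7 known regulators of HOX genes, 5 were compared and 0 differed 2-fold. The intestinal homeobox factors CDX1 and CDX2 had log2 differences of 0.28 and -0.10, of which normexp turned CDX1 to -0.0075, and CTCF, which organizes the chromatin of the cluster, had 0.02. The retinoic acid receptor RARG had -0.08, or 0.02 with normexp, and the probes of RARA disagreed, at -0.20 and 0.72. CDX4 and RARB were well above background on neither array. The epithelial label of the line was checked with marker genes. Of these, 6 of 7 colon epithelial markers were well above background on both arrays and VIL1 on neither, and of 6 markers of blood, fibroblast and endothelial cells COL1A1 alone was compared, with 16.7 and 22.6 on the mock and HOXA5 short arrays.

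The size of the HOXA5 difference moved with the processing while its side of 2-fold did not. It was 1.91 with normexp background correction, which adds an offset of 50 to every signal, and 3.31 after scaling to spike-in RNA. The 8 spike-ins were all lower on the HOXA5 short array after the 75th percentile scaling. They ranged from -0.67 to -0.04 with a median of -0.48, so scaling to them moved all genes up by 0.48. Scaling to the median moved all genes up by 0.10 and gave 2.93 for HOXA5. In the log2 table that the authors deposited the HOXA5 difference was 2.83, the value after the 75th percentile scaling. The other HOXA probes compared also nearly kept their values there, as HOXA11 did at -0.34. That table is therefore no separate check. Under spike-in scaling the other HOXA genes ran from 0.13 for HOXA11 to 0.70 for HOXA3, and 0 of the 7 reached 2-fold.

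**Figure D4:**
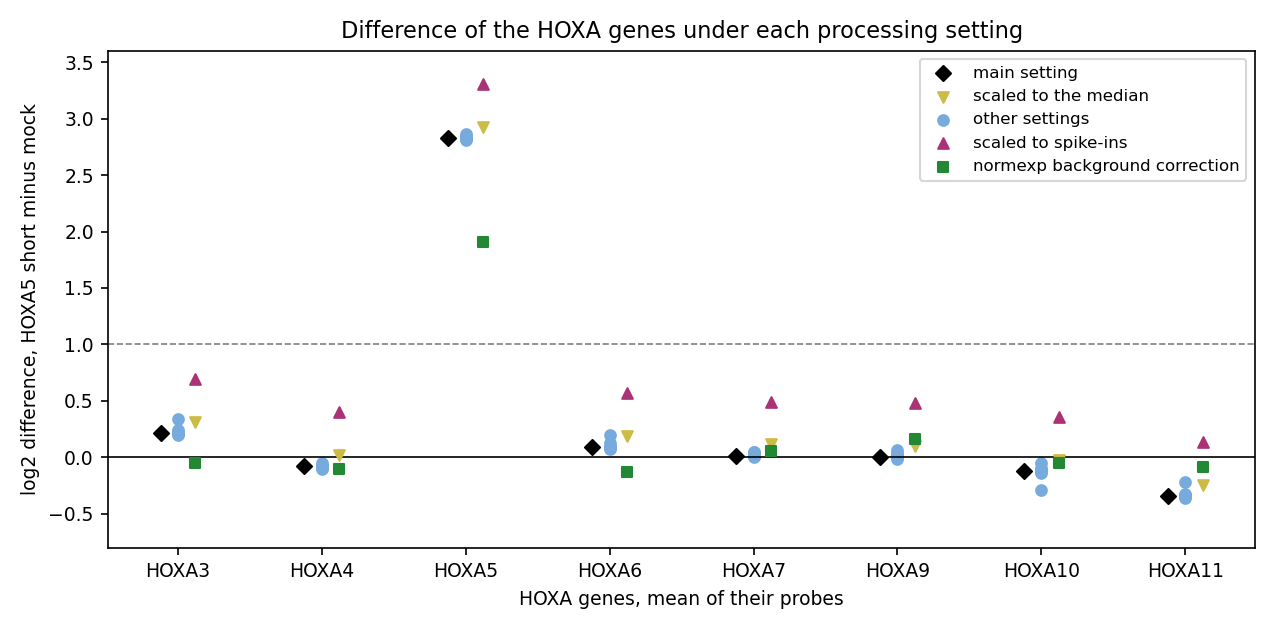
Log2 difference (HOXA5 short minus mock) of the 8 HOXA genes compared under the reported setting (black) and the alternative settings, with the 2-fold line dashed. HOXA5 ran from 1.91 with normexp to 3.31 with spike-in scaling, and the other 7 genes stayed below the line under every setting drawn.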

How the data were processed

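Total RNA of mock-transfected and HOXA5 short RNA-transfected HCT116 cells was hybridized to 1 Agilent 1-color array each. Per the file headers, Feature Extraction 11.5.1.1 quantified the spots, and the deposited intensity is the processed signal on a linear scale, with an error and flags per spot. The authors also deposited log2 values centered on each probe, for which the methods of the study name a filter on the lowest 20th percentile and flags, and no scaling. No spot was saturated (0 spots).

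Spots flagged as outliers were left out, log2 processed signals of a probe were averaged, and each array was scaled to its 75th percentile of non-control probes. Probes well above background on both arrays were compared (17940 of 50599). On the mock array 18423 probes (36.4%) and on the HOXA5 short array 18955 (37.5%) were well above background. A gene was the mean of its probes, and 2-fold was the threshold. Accessions matched to RefSeq records of GRCh38.p14 named 30004 probes (59.3%). The array is annotated on hg19, so no gene coordinates are printed from it. Start windows are those of RefSeq on GRCh38.p14, and oligonucleotides are those of the study.

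Named are all 9 genes, the lists of flanking genes, non-coding transcripts, paralogs, cofactors, regulators and markers, and the 5 genes nearest to HOXA5 in pattern. Some listed genes are not reported here. The genes and lists were chosen with earlier results of these data known. Alternatives were other scalings, quantile and cyclic loess normalization, normexp (offset 50, on median foreground and local background), the deposited log2 values, outlier spots kept, subtraction of surrounding spots, filters, the brightest probe and thresholds of 1.5-fold and 3-fold. Having 1 array per group limits the precision and allowed no test. The arithmetic was tested on simulated data with planted folds. Their noise was smaller than the measured spot SD, so that test says nothing about precision. R 4.3.3 with limma 3.58.1 and Python 3.11.15 with pandas 2.3.3 and numpy 2.4.6 were used.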

Additional observations from a re-analysis of the deposited data

How the results depend on the processing

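The log2 difference of HOXA5 was 3.31 after scaling to the spike-ins and 1.91 with normexp, whose offset of 50 shrinks differences of dim spots. The median of the HOXA genes was 0.49 after scaling to the spike-ins, which moved all genes by 0.48. These 3 values of the main comparisons were counted as moved, and the other 49 were not. Those 49 include counts of genes, which have no spot SD, and settings that could not change a value. Among the values of single genes and probes, 12 moved by more than the spot SD and 106 did not, again with settings that could not change a value. The count of HOXA genes past 2-fold was 1 higher and 0 lower under all 14 alternatives. Over all genes the count of 77 higher and 31 lower depended on the setting, with 414 and 8 after scaling to the spike-ins, 37 and 8 with normexp, 108 and 20 when arrays were scaled by their median, 216 and 108 in the deposited table, 43 and 23 after subtraction of the surrounding spots, 446 and 564 without a filter, 333 and 192 at 1.5-fold and 21 and 6 at 3-fold. Those counts were over 11996 genes, except for 12577 genes in the deposited table and 21613 without a filter. Bounds gave no value, since no HOXA gene was well above background on only 1 array. No paired analysis was possible because each group has 1 array and no result comes from a test. The spot SD of 0.58 at the signals of HOXA4 and HOXA6, and of 0.29 at those of HOXA3 and HOXA11, limits what could be seen for these genes.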
